A study of Mus musculus with 20 samples.

Results

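The collagen genes were taken as every symbol of the count tables that consists of Col, a number, the letter a and a second number, with 10 or more counts in at least 4 of the 20 libraries. Of the 23413 symbols, 44 have such a name, and all 44 met the count rule. The libraries were made from total RNA of the frozen cortex of APOE4 mice, which carry human APOE*4 in place of mouse Apoe (allele Apoe tm1.1(APOE*4)Adiuj on a B6(SJL) background). A control diet (CD) or a ketogenic diet (KD), isocaloric to each other, was given when the mice were 10 months old and kept up for 12 months, so that all 20 were 22 months old at the end. There were 5 CD females (E62, E67, E249, E265 and E228), 4 KD females (E61, E68, E207 and E227), 5 CD males (E51, E58, E66, E251 and E264) and 6 KD males (E53, E59, E64, E213, E256 and E254), with 1 library per mouse. Every group carries the APOE4 allele, so that no comparison bears on the allele itself. The question was which collagens the aged cortex expresses, and how their levels vary with the mouse, the diet and the sex.

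Collagens are secreted or membrane-bound proteins with triple-helical stretches, built from chains that assemble as trimers. Fibrillar collagens form the cables of connective tissue, network-forming collagens such as type IV build basement membranes, and fibril-associated and transmembrane collagens link fibrils, cells and matrix. In the brain, most of the fibrillar and basement membrane collagen lies in the meninges and around vessels and is made by fibroblasts, endothelium and mural cells, while a few collagens, among them types XIX and XXV, are made by neurons.

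The deposited counts per library summed to between 12207161 and 29109990. The libraries belong to series 1 or series 2, told from the library numbers, with 10 libraries each and all 4 groups in both, with totals of 21015275 to 29109990 in series 1 and of 12207161 to 17697342 in series 2. In CPM, the counts scaled by the library total, Xist lay between 319 and 1364 for females and up to 7.59 for males. The Y-linked gene Ddx3y lay between 164 and 241 CPM for males and up to 14.0 CPM for females, a value reached in CD female E228. All 14 markers of leptomeningeal fibroblasts, 10 of endothelium and 10 of cortical excitatory neurons had counts in every library, as had the 10 markers of striatal neurons. Several libraries stood apart from their group in these markers. The summed striatal markers were at 2277, 2404 and 2827 CPM in KD females E68, E61 and E207 and at 3322 CPM in KD male E59, at 1050 CPM in CD female E249, and between 200 and 527 CPM in the other 15 libraries, KD female E227 among them with 271 CPM. KD male E59 also had 3917 CPM of choroid plexus markers, against 214 to 541 CPM in the other 19 libraries. KD male E64 had the most leptomeningeal fibroblast markers, 562 CPM, followed by CD female E249 with 387 CPM, and CD male E66 the fewest, 66 CPM.

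Together the collagen genes took between 246 CPM, in CD male E66, and 520 CPM, in KD male E64, with a median of 367 CPM over the libraries. By mean CPM, 10 of the 44 were at 10 or more, 24 between 1 and 10, and 10 below 1. Scaled per kilobase of exons, the highest mean level was that of Col19a1 (9.66 CPM per kilobase), a fibril-associated collagen of interneurons, followed by Col6a1 (7.69), a chain of type VI microfibrils, and Col25a1 (5.92), a transmembrane collagen of neurons that is found in amyloid plaques. The vessel collagens Col4a1 and Col4a2 came next with 2.91 and 2.60 CPM per kilobase. Between mice, Col19a1 alone ran from 24.8 to 119 CPM, a 4.80-fold range, and the ranges over the libraries overlapped for all 43 pairs of neighbours in the order by level per kilobase. The lowest mean levels per kilobase were those of Col4a3 (0.0620) and Col4a4 (0.0421), the chains of the kidney's filtration membrane. Of the counts on collagen genes, the 5 collagens listed as neuronal (Col19a1, Col25a1, Col11a1, Col23a1 and Col24a1) took 45.7% at the median and 32% to 58.6% over the libraries, the 13 listed as collagens of meningeal and vascular fibroblasts took 30.9% (23.0% to 37.8%), and the 4 of the vascular basement membrane took 11.4% (6.93% to 17.0%). Whether each listed gene was expressed in the cells named by its list was not tested. The depth bounds the low members: the lowest count of any member was 1, reached by Col17a1, Col7a1, Col6a5 and Col2a1.

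**Figure D1:**
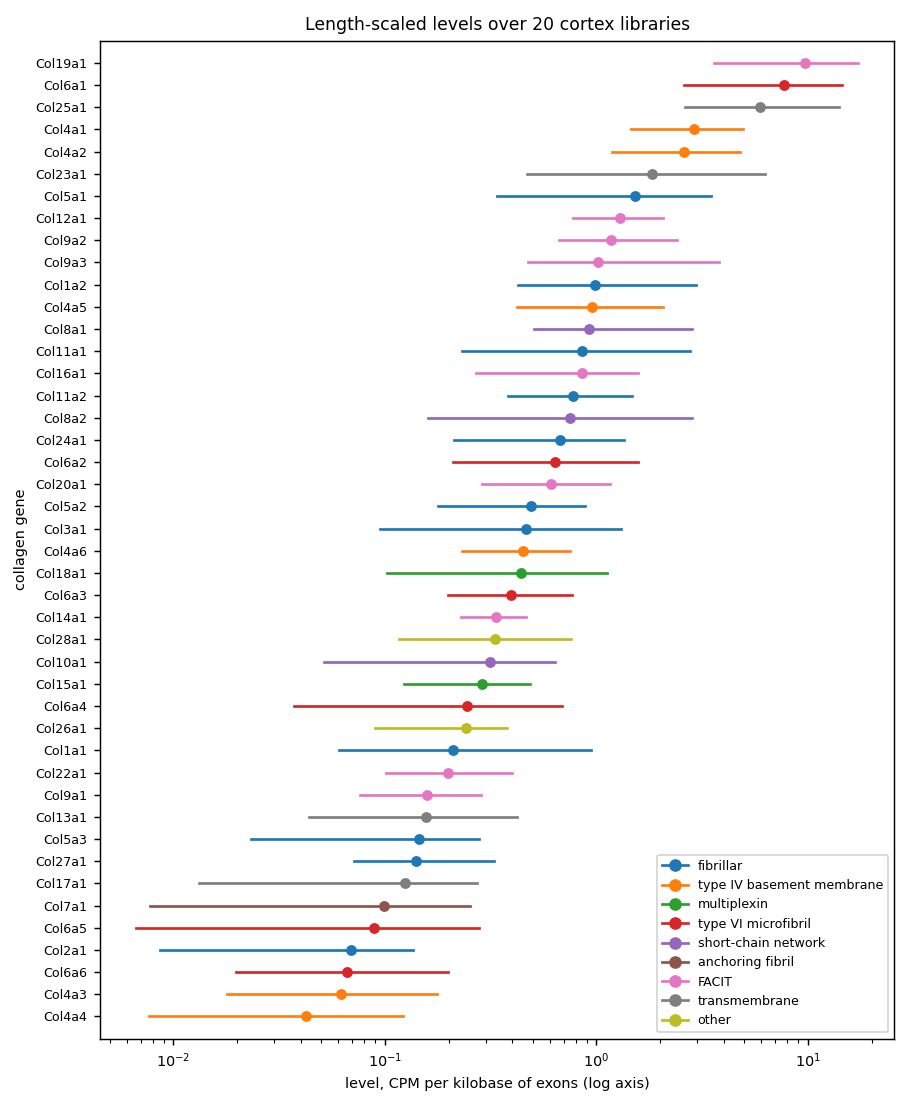
Level of each of the 44 collagen genes in CPM per kilobase of exons on a log axis, with the mean (point) and the range over the 20 libraries (line), coloured by structural class. Col19a1, Col6a1 and Col25a1 lead with means of 9.66, 7.69 and 5.92 CPM per kilobase, and Col4a4 is lowest with 0.0421.

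In the heat map of all members by library, single mice stand out in every group. KD male E64 was the highest of the 20 libraries for 10 members, among them Col1a1, Col1a2, Col4a1, Col4a2, Col18a1 and Col23a1. CD male E51 was highest for 8, CD female E249 for 6 and KD male E59 for 5. CD male E66 was the lowest library for 13 members and CD female E265 for 12. E66 had the fewest leptomeningeal markers, and E265 the smallest summed level of the vascular basement membrane collagens, 20.6 CPM against 25.2 to 77.5 CPM in the others. That sum contains Col4a1, Col4a2 and Col18a1, for each of which E265 was the lowest library. The endothelial markers of E265 summed to 307 CPM and its leptomeningeal markers to 162 CPM, beside medians of 261 and 157 CPM over the libraries. In bulk RNA, fewer cells of a type and less RNA per cell cannot be told apart, here and in all results below.

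**Figure D2:**
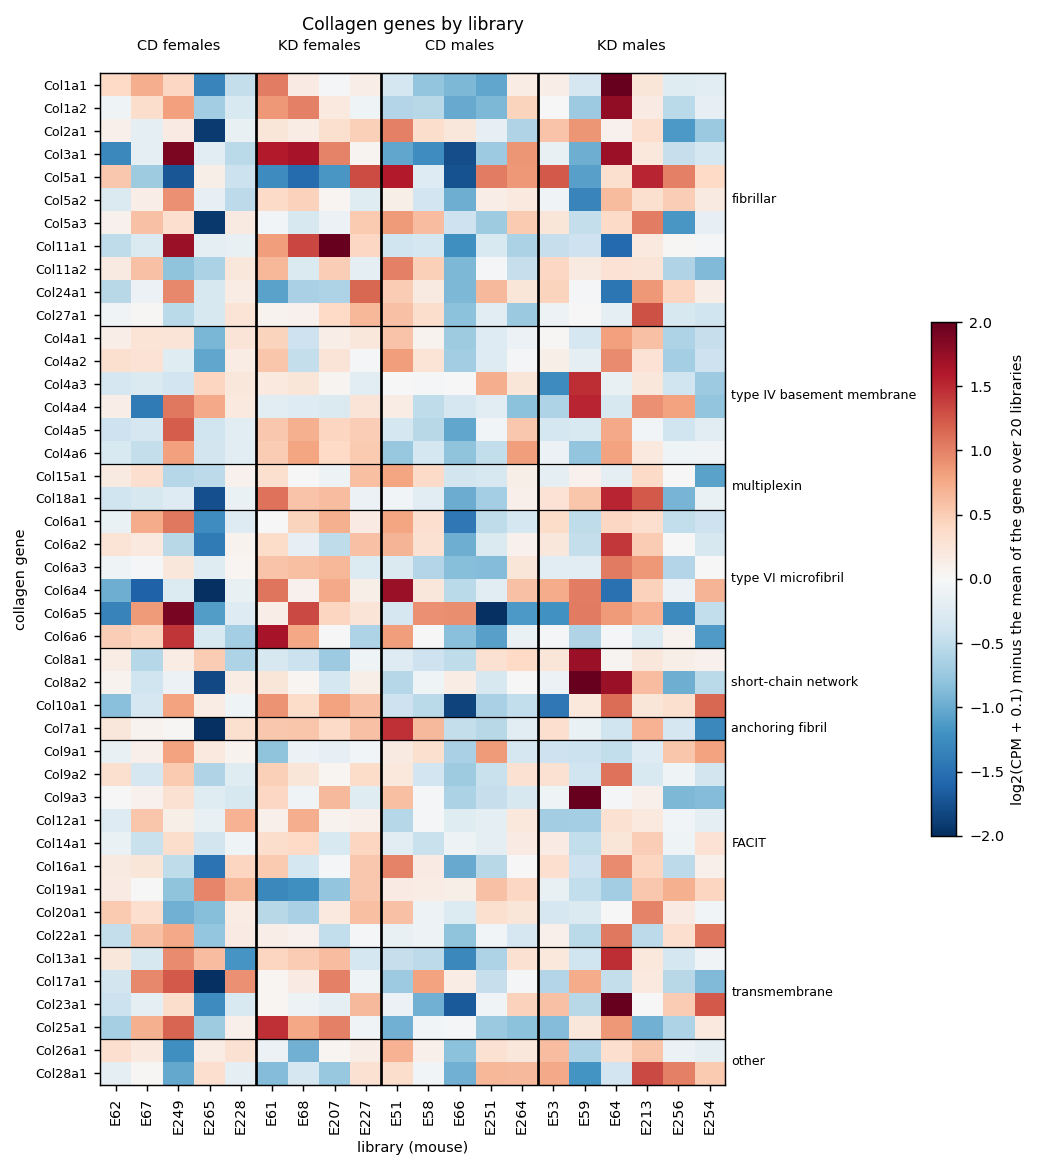
The 44 collagen genes (by structural class) in the 20 libraries (by group). Colour is log2(CPM + 0.1) minus the mean of the gene over the libraries, red above and blue below. E64 is the highest library for 10 genes, and E66 and E265 are the lowest for 13 and 12.

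The fibrillar collagens, 11 genes, form the tensile fibres of connective tissue. Col1a2, the second chain of type I collagen, had a mean of 12.2 CPM and a range from 5.28 CPM in E66 to 36.9 CPM in E64. Its partner Col1a1 had a mean of 1.38 CPM and a range from 0.397 to 6.19 CPM, again highest in E64. Per kilobase, Col1a2 stood above Col1a1 in 20 of 20 libraries, by a median of 4.81-fold (3.14-fold to 8.86-fold), while the ratio in counts was 9.10 at the median. The length used is the union of all annotated exons, which sets the size of such ratios. Col3a1, the single chain of type III collagen, was the second most variable of the class between mice, with an SD of log2 CPM of 1.10 and values from 0.927 to 12.8 CPM. Its highest values were in E249 (12.8 CPM), E64 (11.3), E68 (10.9) and E61 (10.4), whose leptomeningeal markers summed to 387, 562, 316 and 262 CPM. E254 and E264, at 282 and 275 CPM of these markers, had 2.65 and 6.38 CPM of Col3a1. Col5a1, a chain of the type V collagen that nucleates fibrils, was the most variable of all members, with an SD of log2 CPM of 1.14 and a range from 2.86 to 29.7 CPM, while its partner Col5a2 ranged from 1.71 to 8.44 CPM. The other fibrillar members were Col11a1 (mean 10.9 CPM), Col11a2 (5.32), Col24a1 (5.12), Col27a1 (1.82), Col5a3 (0.989) and Col2a1 (0.636).

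The promoters of Col1a2 and Col3a1 are shown as those of the fibroblast fibril collagens whose levels are compared here, with the windows of RefSeq (GRCm38.p6, 250 bases before to 50 after the start, strand +) at chr6:4505368-4505667 and chr1:45311288-45311587. Capitals mark the CCAAT box (on the other strand read as ATTGG), the GC box GGGCGG (read as CCGCCC) and the TATA box TATAAA (read as TTTATA), on either strand, and no match overlaps another.
Col1a2: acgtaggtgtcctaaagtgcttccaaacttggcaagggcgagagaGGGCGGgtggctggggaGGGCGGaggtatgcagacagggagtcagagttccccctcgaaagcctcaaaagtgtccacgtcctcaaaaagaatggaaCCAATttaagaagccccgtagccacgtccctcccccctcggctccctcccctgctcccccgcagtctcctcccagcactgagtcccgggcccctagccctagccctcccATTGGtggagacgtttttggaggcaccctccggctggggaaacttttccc
Col3a1: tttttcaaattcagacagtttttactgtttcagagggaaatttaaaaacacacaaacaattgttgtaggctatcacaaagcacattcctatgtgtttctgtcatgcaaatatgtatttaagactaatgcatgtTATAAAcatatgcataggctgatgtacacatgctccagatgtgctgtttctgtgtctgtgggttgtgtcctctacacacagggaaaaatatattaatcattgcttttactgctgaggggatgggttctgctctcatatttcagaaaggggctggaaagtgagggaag
The Col1a2 window holds the CCAAT box and the GC box, and that of Col3a1 the TATA box. Among the 38 windows given for 35 of the 44 members, the CCAAT box is in 34.2%, the GC box in 60.5% and the TATA box in 13.2%, beside 37.4%, 35.7% and 13.6% of all 32851 windows of the table. A match is a description of letters and not a site.

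Across the 20 mice, Col1a1 and Col1a2 gave a Pearson r of 0.89 and a Spearman rho of 0.89 in log2 CPM (permutation p = 1e-05 each, the smallest that 100000 resamples can give, and 2.25e-05 and 3e-05 adjusted over the 9 pairs examined). The r was 0.91 within series 1, 0.87 within series 2 and 0.84 without E64 and E265, the 2 mice farthest from the median. Col1a1 and Col3a1 gave r = 0.65 and rho = 0.68 (permutation p = 0.00126 and 0.00135, adjusted 0.00189 and 0.00203), with 0.77 and 0.67 within the series and 0.65 without the same 2 mice. Col1a2 and Slc6a13, a transporter gene that marks leptomeningeal fibroblasts, gave r = 0.91 and rho = 0.93 (permutation p = 1e-05 each, adjusted 2.25e-05 and 3e-05), with 0.98 and 0.97 within the series and 0.90 without E64 and E68. For the type V chains Col5a1 and Col5a2 the values were r = 0.15 and rho = 0.04 (permutation p = 0.517 and 0.865, adjusted 0.581 and 0.865), with 0.26 and -0.19 within the series and 0.20 without E66 and E249. Per kilobase, the ratio of Col5a1 to Col5a2 ran from 0.395 in E249 to 7.37 in E227.

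**Figure D3:**
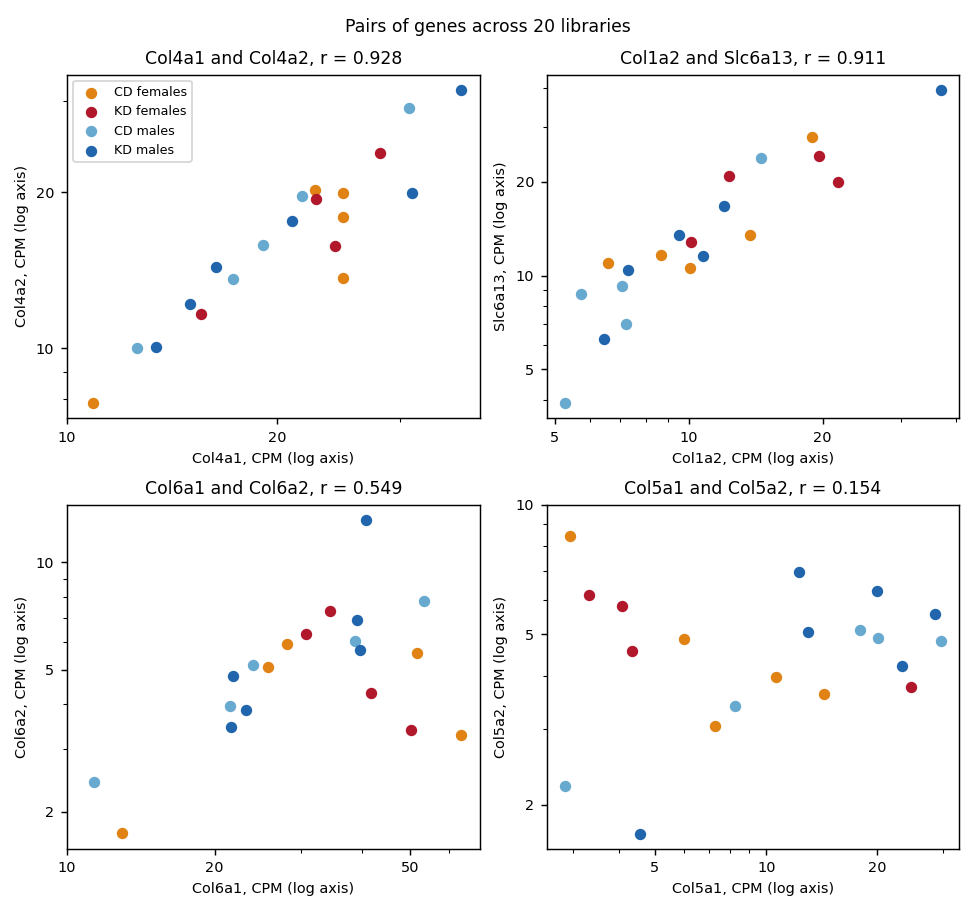
CPM of 2 genes against each other in the 20 libraries, on log axes, coloured by group. Col4a1 with Col4a2 (r = 0.928) and Col1a2 with Slc6a13 (r = 0.911) follow a line, Col6a1 with Col6a2 (r = 0.549) does so less, and Col5a1 with Col5a2 (r = 0.154) does not.

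Type IV collagen is the scaffold of basement membranes, and Col4a1 and Col4a2 encode the chains found in all of them, vessels included. Both genes lie head to head on chromosome 8 (GRCm38), Col4a1 at chr8:11198423-11312826 on the minus strand and Col4a2 at chr8:11312805-11449287 on the plus strand. Their start sites are 21 bases apart in RefSeq, and the annotated genes overlap there, so that counts of reads on the shared bases depend on whether strand was used. The promoter windows are printed for this arrangement (GRCm38.p6, chr8:11312777-11313076 on strand - and chr8:11312555-11312854 on strand +), with the 78 bases that lie in both windows in capitals.
Col4a1: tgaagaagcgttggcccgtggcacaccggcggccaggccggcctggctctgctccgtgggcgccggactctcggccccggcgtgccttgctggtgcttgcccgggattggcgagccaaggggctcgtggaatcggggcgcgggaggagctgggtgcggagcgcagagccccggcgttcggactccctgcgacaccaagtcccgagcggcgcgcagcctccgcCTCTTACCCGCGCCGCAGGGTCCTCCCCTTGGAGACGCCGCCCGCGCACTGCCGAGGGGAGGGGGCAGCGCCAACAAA
Col4a2: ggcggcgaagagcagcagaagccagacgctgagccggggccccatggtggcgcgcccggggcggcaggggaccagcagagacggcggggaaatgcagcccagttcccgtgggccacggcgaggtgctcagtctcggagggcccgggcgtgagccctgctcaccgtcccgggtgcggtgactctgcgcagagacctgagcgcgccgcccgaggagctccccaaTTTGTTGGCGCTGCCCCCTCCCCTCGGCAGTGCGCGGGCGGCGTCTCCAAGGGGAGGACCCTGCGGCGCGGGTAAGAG
The capitals of one window are the reverse complement of those of the other. Across mice, Col4a1 and Col4a2 gave the highest r of the 9 pairs, 0.93, with rho = 0.88 (permutation p = 1e-05 each, adjusted 2.25e-05 and 3e-05). The r was 0.99 within series 1, 0.91 within series 2 and 0.89 without E265 and E66. Their level per kilobase was close to equal, with a median ratio of Col4a1 to Col4a2 of 1.10 (0.940 to 1.61).

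Col4a1 had a mean of 21.7 CPM and a range from 10.9 CPM in E265 to 36.7 CPM in E64, and Col4a2 a mean of 17.2 CPM and a range from 7.86 to 31.5 CPM in the same 2 libraries. Col4a1 followed the endothelial gene Cldn5 across mice with r = 0.76 and rho = 0.77 (permutation p = 0.00011 and 0.00012, adjusted 0.000198 and 0.000216). The r was 0.72 and 0.84 within the series and 0.73 without E265 and E66. Cldn5 is a single marker, and a correlation with the summed endothelial markers was not tested. E265 and E68, at 10.9 and 15.6 CPM of Col4a1, had sums of 307 and 336 CPM. E51 and E64, at 30.9 and 36.7 CPM, had sums of 232 and 257 CPM. In the other direction, E61 and E249, at 28.1 and 24.8 CPM, had sums of 356 and 347 CPM. Col4a5 and Col4a6, on the X chromosome with start sites 1343 bases apart, gave r = 0.90 and rho = 0.79 (permutation p = 1e-05 and 5e-05, adjusted 2.25e-05 and 0.000113), with 0.91 and 0.86 within the series and 0.88 without E249 and E64. Col4a5 ranged from 2.82 to 13.8 CPM, highest in E249, and Col4a6 from 1.85 to 5.98 CPM. Col4a3 and Col4a4 were at 0.179 to 1.75 CPM and 0.0811 to 1.29 CPM. Both were highest in KD male E59, the library with the choroid plexus markers, and the part of that tissue in their values was not tested.

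The multiplexins Col18a1 and Col15a1 are basement membrane collagens whose ends are released as endostatin and an endostatin-like fragment. Col18a1 (chr10:77052178-77166548, minus strand, overlapped on the opposite strand by Slc19a1 and Gm7775) had a mean of 3.08 CPM, and Col15a1 of 1.82 CPM. Col18a1 and Ttr, the main product of the choroid plexus, gave r = 0.05 and rho = 0.09 across mice (permutation p = 0.842 and 0.708, adjusted 0.842 and 0.797), with 0.02 within both series and -0.0042 without E64 and E265.

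Type VI collagen forms beaded microfibrils from chains that assemble as heterotrimers. Col6a1 and Col6a2 are neighbours on chromosome 10 (chr10:76708792-76726168 and chr10:76595762-76623630, both on the minus strand, with no overlapping gene). Col6a1 had a mean of 33.7 CPM and a range from 11.3 CPM in E66 to 63.7 CPM in E249, whereas Col6a2 had 5.30 CPM (1.75 to 13.1) and Col6a3 4.74 CPM (2.39 to 9.15). Per kilobase, Col6a1 exceeded Col6a2 in 20 of 20 libraries, by a median of 11.1-fold and from 5.91-fold in E64 to 36.9-fold in E249, and it exceeded Col6a3 by a median of 17.7-fold. In counts these medians were 5.81 and 6.46. Across mice, Col6a1 and Col6a2 gave r = 0.55 and rho = 0.42 (permutation p = 0.012 and 0.0674, adjusted 0.0154 and 0.0867). The r was 0.72 and 0.33 within the series and 0.19 without E66 and E265, so that the relation rests on those 2 mice. The paralogs Col6a4, Col6a5 and Col6a6, neighbours on chromosome 9, were lower, with means of 2.07, 0.837 and 0.608 CPM.

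The short-chain collagens Col8a1 and Col8a2 form sheets under vessel and corneal endothelium, and Col10a1 belongs to hypertrophic cartilage. Col8a1 was at 22.2 CPM in KD male E59 and at 3.97 to 9.45 CPM in the other 19 libraries, and Col8a2 at 12.7 CPM in E59, 9.40 CPM in E64 and 0.715 to 4.27 CPM elsewhere. Col10a1 (chr10:34389981-34397085, plus strand, inside Nt5dc1 on the opposite strand) was at 0.161 to 1.99 CPM. The 7 marker genes of bone and cartilage summed to between 12.2 and 22.2 CPM in all libraries, and 3 of them (Bglap, Ibsp and Matn3) were at 0 in at least 1 library. The anchoring fibril gene Col7a1 had a mean of 1.02 CPM.

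Among the fibril-associated members, Col19a1 (66.5 CPM) and Col12a1 (19.8 CPM) had the highest mean CPM, and Col14a1 (2.35 CPM) varied least of all 44 between mice, with an SD of log2 CPM of 0.33 and a range from 1.60 to 3.26 CPM. Col12a1 was the next least variable, with an SD of 0.40. Col9a3 was at 14.6 CPM in KD male E59 and at 1.83 to 5.52 CPM elsewhere. The others were Col16a1 (mean 5.75 CPM), Col9a2 (3.63), Col20a1 (3.14), Col22a1 (1.84) and Col9a1 (0.800). The transmembrane members were Col25a1 (76.6 CPM), Col23a1 (10.5 CPM), Col17a1 of hemidesmosomes (0.749 CPM) and Col13a1 of the neuromuscular junction (0.718 CPM), and the remaining genes, Col26a1 and Col28a1, had 1.97 and 1.62 CPM.

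Diet differences were tested on all 15660 genes that passed the expression filter, with edgeR's quasi-likelihood test, at an adjusted p of 0.1 and a 1.5-fold change. In females 0 of the 44 collagen genes were called (0.0447% of all genes tested were), in males 0 (0.0%) and in both sexes together 0 (0.268%). With DESeq2 the counts were 1, 0 and 3, where 1.62%, 0% and 2.24% of all genes were called, and with edgeR's likelihood ratio test 0, 0 and 3, where 1.4%, 0% and 2.36% were. The smallest adjusted p among the members was 0.243 in females, 0.9998 in males and 0.128 in both sexes. At an unadjusted p under 0.05 there were 4 of 44 members in females (9.09%, beside 11.4% of all genes), 6 in males (13.6%, beside 3.56%) and 6 in both sexes (13.6%, beside 13.9%). By direction these were 3 higher in KD and 1 lower in females (beside 5.86% and 5.5% of all genes), 6 and 0 in males (2.37% and 1.19%), and 5 and 1 in both sexes (7.41% and 6.44%). The estimate was above 0 for 31 of 44 members in females (70.5%, beside 52.7% of all genes). Their median log2 difference was 0.15 beside 0.01 over all genes tested. The estimate was above 0 for 29 in males (65.9%, beside 49.1%), with a median of 0.19 beside 0.00. For both sexes it was above 0 for 32 (72.7%, beside 51.5%), with a median of 0.21 beside 0.01. Single mice moved these medians: in females to 0.064 without E265 and 0.32 without E249, and in males to 0.058 without E66, 0.067 without E64 and 0.33 without E51. With the leptomeningeal marker score as a covariate the median in males was 0.030. The estimate for both sexes is the mean of the 2 others and uses the same libraries.

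**Figure D4:**
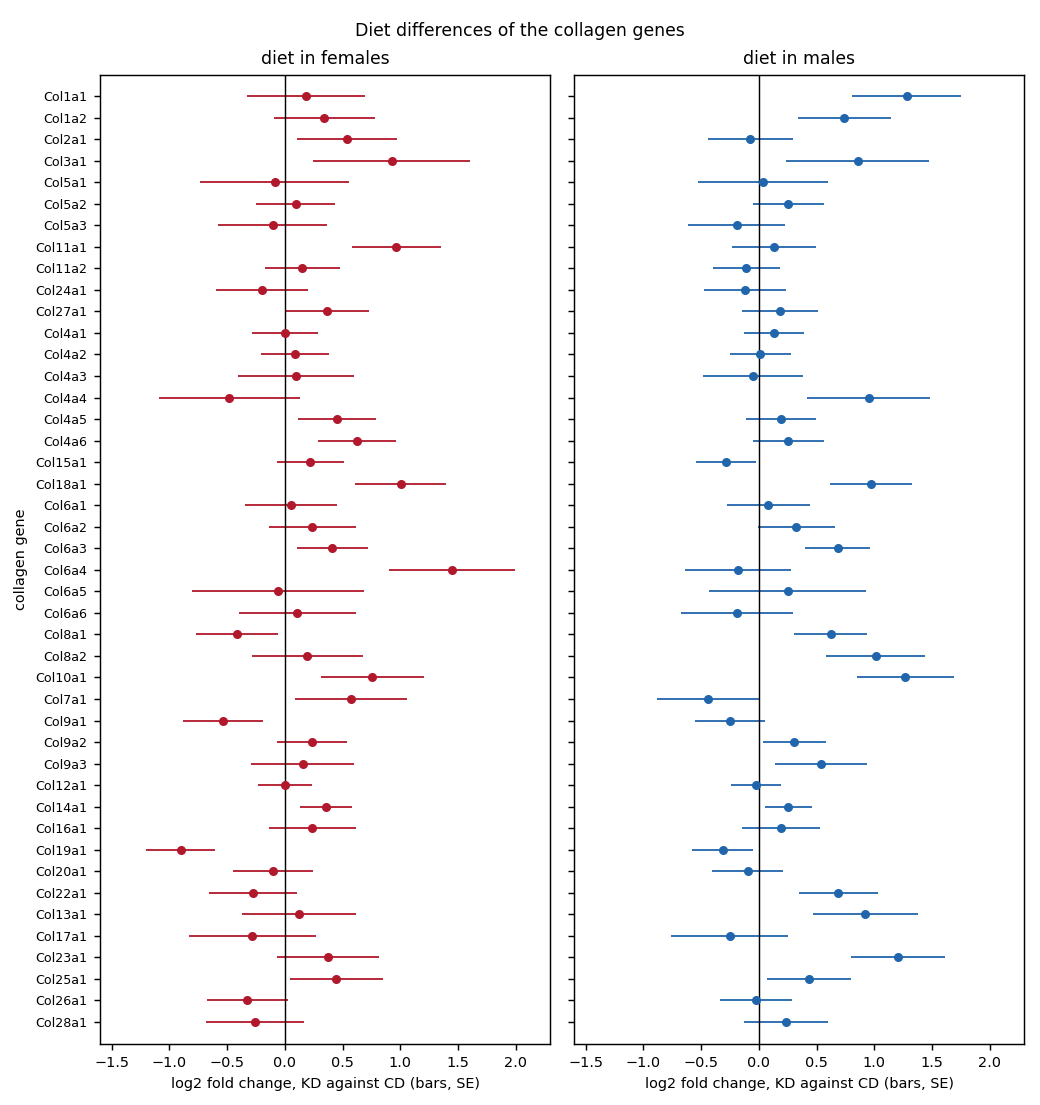
log2 fold change of KD against CD (point) with its SE (bar) for the 44 collagen genes in females and in males, from 1 fit of all 20 libraries. The estimates run from -0.90 (Col19a1) to 1.45 (Col6a4) in females and from -0.44 (Col7a1) to 1.28 (Col1a1) in males, and none was called.

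Col19a1 (chr1:24261890-24587472, minus strand) had the smallest p of the members in females. CD females were at 67.8 CPM (E62), 60.9 (E67), 34.6 (E249), 119 (E265) and 96.2 (E228). KD females were at 24.8 CPM (E61), 25.8 (E68), 35.0 (E207) and 88.5 (E227). In each group 1 mouse was with the other diet: E249 lay among the KD females and E227 among the CD females. KD was at -0.90 ± 0.30 against CD on the log2 scale (SE, adjusted p = 0.243), and a two-sided exact permutation test of log2 CPM over 126 splits gave p = 0.143. In males CD mice were at 68.3, 67.3, 65.5, 90.8 and 80.7 CPM (E51, E58, E66, E251 and E264), and KD males ranged from 37.5 to 99.6 CPM with a median of 68.3. The groups overlapped, at -0.31 ± 0.27 (log2, adjusted p = 0.9998, exact permutation p = 0.424). Over both sexes Col19a1 was at -0.61 ± 0.20 (log2, adjusted p = 0.173), at -0.73 without E249 (0.0115) and at -0.80 without E227 (0.0172).

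The 5 female libraries with the least Col19a1 were E61, E68, E249 and E207 and then E67, and the first 4 were those with 1050 CPM or more of striatal markers. All 10 striatal markers were estimated higher in KD females (8 with an unadjusted p below 0.05, beside 5.86% of all genes), by a log2 median of 2.13. Their sum was at 210 to 1050 CPM in CD and 271 to 2827 CPM in KD females. Of the 10 markers of cortical excitatory neurons, 9 were estimated lower, with a median of -0.93. With the score of the striatal markers added as a covariate the log2 fold change of Col19a1 in females was -0.32 (adjusted p = 0.881). Without E249 the log2 fold change of Col19a1 in females was -1.12 (adjusted p = 0.0136), without E227 -1.32 (0.0139) and without E207 -0.75 (0.719). Without both E249 and E227 it was -1.50 (2.62e-05), where the striatal sums of the 2 diets no longer overlap (at most 247 CPM in CD and at least 2277 CPM in KD). Within series 1 it was -1.39 (adjusted p = 0.00595) and within series 2 -0.51 (0.834). The promoter window of Col19a1, the member highest per kilobase, is chr1:24587388-24587687 on strand - (GRCm38.p6, 300 bases) and holds none of the 3 motifs.
Col19a1: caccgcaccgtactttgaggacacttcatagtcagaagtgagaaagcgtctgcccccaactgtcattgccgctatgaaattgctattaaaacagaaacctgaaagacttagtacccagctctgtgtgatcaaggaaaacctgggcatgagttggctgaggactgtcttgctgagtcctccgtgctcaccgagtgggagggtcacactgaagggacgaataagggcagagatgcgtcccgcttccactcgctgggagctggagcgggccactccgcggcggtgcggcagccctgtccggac
The absence of a match says only that these letters are not in this window.

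**Figure D5:**
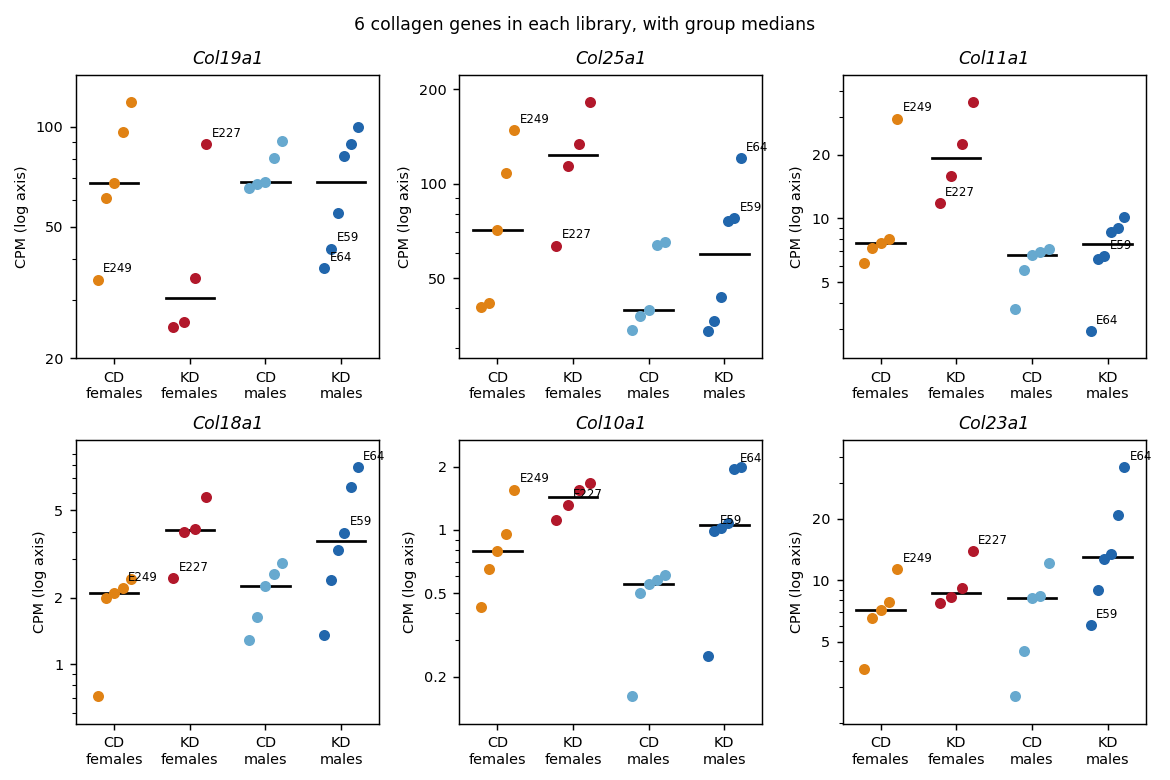
CPM of 6 collagen genes in each library on log axes, by group, with the group median as a line and 4 libraries that stood apart in marker genes named. For Col19a1, E249 lies with the KD females and E227 with the CD females, and for Col18a1 the KD females start at 2.45 CPM, above the highest CD female at 2.43.

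Of all genes tested, the KD and CD libraries did not overlap for 2.1% in females, and of the collagen genes for 3 of 44 (6.82%), Col18a1, Col6a4 and Col7a1, each higher in KD, the direction of 1.7% of all genes. Col18a1 was at 2.0, 2.11, 2.21, 0.715 and 2.43 CPM in CD females (E62, E67, E249, E265 and E228) and at 5.75, 4.01, 4.12 and 2.45 CPM in KD females (E61, E68, E207 and E227). All KD values were above all CD values, with the closest mice E228 and E227, and the lowest value, in E265, rests on 9 counts. The fit gave 1.0 ± 0.40 (log2, adjusted p = 0.332), with an exact permutation p of 0.0159, the smallest that 126 splits can give. In males CD mice were at 2.56, 2.27, 1.29, 1.63 and 2.87 CPM (E51, E58, E66, E251 and E264), and KD males ranged from 1.35 to 7.85 CPM with a median of 3.63, so that the groups overlapped. The log2 fold change there was 0.97 ± 0.36 (adjusted p = 0.9998, exact permutation p = 0.108), and 0.70 without E59 and E64. Over both sexes it was 0.99 ± 0.27 (adjusted p = 0.128), with 1.23 within series 1 (0.0399) and 0.69 within series 2 (0.9997). It was 0.74 with the leptomeningeal marker score as a covariate and 0.86 with the striatal score, at adjusted p of 0.344 and 0.538. Leaving out E249 gave 1.03 (adjusted p = 0.0327), E227 1.06 (0.0353) and E256 1.08 (0.0862). The adjusted p stayed above 0.1 without E64 (0.876, adjusted p = 0.192), E213 (0.860, 0.152) or E264 (1.08, 0.122). The same held without both E59 and E64 (0.860, 0.302).

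Col6a4 (chr9:105989454-106096783, minus strand) was at 0.809, 0.486, 1.39, 0.318 and 1.53 CPM in CD females (E62, E67, E249, E265 and E228) and at 3.65, 1.81, 2.94 and 1.85 CPM in KD females (E61, E68, E207 and E227). All KD values were above all CD values, from counts as low as 4 in E265. The fitted log2 difference was 1.45 ± 0.55 (adjusted p = 0.309, exact permutation p = 0.0159), with 2.03 within series 1 and 1.06 within series 2. In males it was -0.18 ± 0.46 (adjusted p = 0.9998, exact permutation p = 0.818), with CD mice from 1.13 to 5.85 CPM and KD mice from 0.540 to 3.54 CPM. Col7a1 in females was at 0.0794 to 1.13 CPM in CD and at 1.18 to 1.38 CPM in KD, and KD was at 0.57 ± 0.49 (log2, adjusted p = 0.751). These are among 88 exact tests, of all 44 members in both sexes, with no adjustment for their number. Of them, 5 in females (Col18a1, Col6a4, Col7a1, Col2a1 and Col9a1) and 1 in males (Col1a1) gave a p under 0.05. The exact test was not run on the other genes, so these counts have no share over all genes beside them.

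In males the KD and CD libraries did not overlap for 0 of 44 members (0.217% of all genes tested, and 0.102% with KD higher). Col10a1 was at 0.607, 0.550, 0.161, 0.502 and 0.575 CPM in CD males (E51, E58, E66, E251 and E264), and KD males ranged from 0.250 to 1.99 CPM with a median of 1.05. Of the 6 KD males, all except E53 were above every CD male. KD was at 1.27 ± 0.42 (log2, adjusted p = 0.9998, exact permutation p = 0.0866), with 1.22 in series 1 and 1.34 in series 2. In females Col10a1 was at 0.428 to 1.56 CPM in CD and 1.12 to 1.67 CPM in KD, or 0.76 ± 0.44 (log2, adjusted p = 0.562, exact permutation p = 0.0794), and over both sexes it was 1.01 ± 0.30 (adjusted p = 0.147). This last value was 1.13 without E249 (0.0337), 1.07 without E227 (0.0682) and 1.11 without E53 (0.0870), but 0.87 without E64 (0.218), 0.80 without E59 and E64 (0.367) and 0.77 with the leptomeningeal score (0.414). In males alone Col10a1 was at 0.78 without E59 and E64. Because Col10a1 lies within Nt5dc1, its reads and those of the other strand cannot be told apart where strand was not used in counting.

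Col23a1, a transmembrane collagen listed with the neuronal ones, was at 8.19, 4.50, 2.70, 8.41 and 12.2 CPM in CD males (E51, E58, E66, E251 and E264), and KD males ranged from 6.02 to 35.8 CPM with a median of 13.0. The groups overlapped, and E64 was the highest with 35.8 CPM. The log2 fold change was 1.20 ± 0.41 (adjusted p = 0.9998, exact permutation p = 0.0649), and 0.74 without E64. With the leptomeningeal marker score as a covariate it was 0.68, and with the striatal score 1.23. Within series 1 it was 1.80 and within series 2 0.48. The other males' members with an unadjusted p below 0.05 were Col1a1 (log2 fold change 1.28), Col8a2 (1.01) and Col6a3 (0.68), for each of which E64 or E59 was the highest male. Of the 14 leptomeningeal fibroblast markers, 14 were estimated higher in KD males (log2 median 0.65), with sums of 66 to 275 CPM in CD and 114 to 562 CPM in KD males. Of the 10 choroid plexus markers 8 passed the expression filter, and all 8 were estimated higher (log2 median 2.0). Of these, 6 had an unadjusted p below 0.05, beside 2.37% of all genes. The striatal markers were estimated higher for 10 of 10 (log2 median 1.28). E59 was the highest male in both sums. Its choroid plexus sum was 3917 CPM, beside 214 to 414 CPM in the other KD males and 385 to 541 CPM in CD males. The part of these tissues in the male values was not tested beyond the settings given. Without E59 and E64 the median of the 44 members in males was 0.09 and 0 members were called.

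By listed location, the 13 collagens given for meningeal and vascular fibroblasts had log2 medians of 0.20 for females (11 of 13 above 0) and 0.32 for males (12 of 13). Col5a1 is in this list. It was at 2.95 CPM in E249 and 29.7 CPM in E51, whose leptomeningeal markers summed to 387 and 103 CPM, and lowest in E66, at 66 CPM of these markers. The 4 of the vascular basement membrane had medians of 0.15 (4 of 4) and 0.07 (3 of 4), and the 5 neuronal ones 0.37 and 0.13 (3 of 5 in both). The neuronal median in females was -0.089 with the striatal score as a covariate, a score that largely went with diet in females. The vascular basement membrane median in males was -0.12 without E64. The medians over all genes tested were 0.01 in females and 0.00 in males, with 52.7% and 49.1% of all genes above 0. Col4a1 and Col4a2 gave values near 0 in both sexes, 0.00 ± 0.29 and 0.08 ± 0.29 in females and 0.13 ± 0.26 and 0.01 ± 0.26 in males. By structure, the 11 fibrillar genes had medians of 0.18 and 0.13, and the 3 short-chain genes 0.20 and 1.01. The type IV genes had medians of 0.09 in females and 0.16 in males, the latter -0.040 without E64, and the 9 fibril-associated ones 0.00 and 0.19. In males the fibrillar median was -0.084 without E213.

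The difference between the diet effects of the sexes, tested as an interaction, was called for 0 of 44 members (0.0% of all genes tested), and 2 (4.55%, beside 2.14%) had an unadjusted p under 0.05, Col6a4 and Col8a1. DESeq2 and the likelihood ratio test also called 0. Col6a4 gave 1.63 ± 0.72 (females minus males, log2, adjusted p = 0.9999). Col8a1 gave -1.04 ± 0.48 (adjusted p = 0.9999), from a log2 fold change of -0.41 in females and 0.62 in males, and -0.54 without E59, the male at 22.2 CPM. Within the series it was -1.50 and -0.33. In females Col8a1 was at 7.33, 4.42, 7.37, 9.45 and 4.29 CPM in CD and at 5.28, 4.91, 3.97 and 6.22 CPM in KD mice, and the groups overlapped. Col22a1, a fibril-associated collagen of tissue junctions, followed with -0.97 ± 0.51 (adjusted p = 0.9999).

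Between females and males, over both diets, 0 of 44 members were called (0.134% of all genes tested), or 2 with DESeq2 (1.35% of all genes) and 2 with the likelihood ratio test (1.83%), and 6 (13.6%, beside 13.6%) had an unadjusted p under 0.05, 4 higher in females (8.59% of all genes) and 2 lower (4.96%). Col11a1, a fibrillar collagen best known from cartilage, ranged from 6.19 to 35.4 CPM in the 9 females with a median of 11.8, and from 2.95 to 10.2 CPM in the 11 males with a median of 6.72. The 4 highest libraries were E207 (35.4 CPM), E249 (29.6), E68 (22.5) and E61 (15.9), the females with 1050 CPM or more of striatal markers, whereas KD male E59, at 3322 CPM of these markers, had 6.62 CPM of Col11a1. The log2 fold change was 1.15 ± 0.26 (adjusted p = 0.129), with 1.02 and 1.28 within the series, and 0.69 with the striatal score as a covariate. It was 1.26 without E227 (adjusted p = 0.00925), 1.18 without E59 (0.0739) and 1.22 without E62 or without E228 (0.0873 and 0.0877), but 0.89 without E249 (0.182) and 1.09 without E64 (0.138). Within females, KD against CD gave 0.97 ± 0.39 (adjusted p = 0.344), with CD at 6.19, 7.25, 29.6, 7.70 and 7.97 CPM (E62, E67, E249, E265 and E228) and KD at 15.9, 22.5, 35.4 and 11.8 CPM (E61, E68, E207 and E227). The groups overlapped through E249 alone.

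Col25a1 (chr3:130131501-130599877, plus strand, with 5 small annotated genes within it) ranged from 40.4 to 182 CPM in females with a median of 108, and from 33.9 to 121 CPM in males with a median of 43.4. The highest values were in E61 (182 CPM), E249 (149), E207 (134), E64 (121) and E68 (114). The log2 fold change of females against males was 0.89 ± 0.27 (adjusted p = 0.199), with 0.67 and 1.04 within the series, 0.70 without E249, 0.97 without E227 (0.0438) and 0.48 with the striatal score. The diet gave 0.45 ± 0.40 in females and 0.43 ± 0.37 in males. Its RefSeq promoter window (chr3:130180595-130180894, strand +, GRCm38.p6) is shown as that of the member with the highest mean CPM, with the CCAAT box and the GC box in capitals.
Col25a1: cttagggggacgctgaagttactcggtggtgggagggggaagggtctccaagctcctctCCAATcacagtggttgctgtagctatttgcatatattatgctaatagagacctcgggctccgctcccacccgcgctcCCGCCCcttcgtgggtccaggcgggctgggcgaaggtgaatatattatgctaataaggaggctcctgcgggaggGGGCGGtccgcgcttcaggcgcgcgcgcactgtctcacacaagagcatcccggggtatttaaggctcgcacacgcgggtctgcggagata
Col6a6 (0.91 ± 0.35, adjusted p = 0.273, and 1.01 at 0.0861 without E227) and Col12a1 (0.39 ± 0.16, 0.296) were the other members with an unadjusted p under 0.05 and a higher estimate in females, and Col28a1 (-0.66 ± 0.28, 0.308) and Col5a1 (-0.99 ± 0.43, 0.329) those with a lower one. In all, 24 of 44 members were estimated higher in females (54.5%, beside 50.8% of all genes) and 20 lower. Col5a1 was between 2.95 and 4.34 CPM in E249, E68, E61 and E207, and between 6.00 and 24.6 CPM in the other 5 females. Of the striatal markers, 10 of 10 were estimated higher in females (log2 median 1.09).

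The genes that fold, process, bind and degrade collagen were described from a list of 74, of which 69 passed the expression filter. None was called for diet in females, males or both sexes. The numbers at an unadjusted p under 0.05 were 6 of 69 (8.7%), 3 of 69 (4.35%) and 10 of 69 (14.5%). Of all genes, 11.4%, 3.56% and 13.9% had such a p in either direction. All of the listed genes with such a p were estimated higher in KD, the direction of 5.86%, 2.37% and 7.41% of all genes. The shares were not tested against each other. The medians were 0.22 in females, 0.17 in males and 0.19 in both, beside 0.01, 0.00 and 0.01 over all genes tested. Lamb1, a laminin chain of basement membranes, had the smallest p over both sexes, with 0.76 ± 0.18 (adjusted p = 0.108), from 0.75 ± 0.27 in females and 0.78 ± 0.25 in males. In females Sparc, a collagen-binding matrix protein, gave 0.67 ± 0.22 (adjusted p = 0.248), P4ha3, a prolyl hydroxylase of collagen chains, 1.03 ± 0.35 (0.255), and Adamts3, a procollagen protease, 1.08 ± 0.43 (0.328). In males Dcn, a proteoglycan on collagen fibrils, gave 1.80 ± 0.64 (adjusted p = 0.9998), with 233 CPM in E64 and 135 CPM in E254, and Timp2, an inhibitor of matrix proteases, gave 0.48 ± 0.18 (0.9998). Serpinh1, the collagen chaperone, gave 0.31 ± 0.26 in females and 0.41 ± 0.23 in males, and 0 of 69 had an unadjusted p under 0.05 for the interaction, where P4ha3 gave 0.78 ± 0.47, Sparc 0.50 ± 0.30 and the prolyl hydroxylase subunit P4hb 0.20 ± 0.11. Between females and males 9 of 69 did (13%, beside 13.6% of all genes in either direction). All 9 were estimated higher in females, the direction of 8.59% of all genes. The smallest p was that of Tll1, a procollagen protease, with 0.96 ± 0.25 (adjusted p = 0.145).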

How the data were processed

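Total RNA of the cortex was sequenced as stranded 50-base pairs. Per the methods, alignment was to mm10 with STAR, counting per gene followed the HTSeq method within STAR, and the raw counts per gene symbol were deposited by the authors as 1 table per mouse. The versions, the annotation and the strand setting are not given in the sources used here. Groups came from the labels, where mouse numbers are not shared between groups. Mice are the replicates, so p-values measure the spread between mice.

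From the counts, genes passing edgeR's expression filter (15660, all 44 members among them) were scaled by the upper quartile and fitted with edgeR 4.0.16 in R 4.3.3 (robust quasi-likelihood, with group and library series as terms). P-values were adjusted over all genes by Benjamini-Hochberg, and a gene was called at an adjusted p of 0.1 with a 1.5-fold change. RUVg, which the study used, was run as an alternative with 1 and 2 factors (controls: all but the 5000 genes of smallest p), since its factors and controls are not given. DESeq2 1.42.0 was used in alternatives, and limma 3.58.1 was loaded without a fit of its own. Values in log2 CPM came from edgeR (prior count 2). The SE printed with a log2 fold change is the size of that change divided by the square root of its F statistic. Exact two-sided permutation tests ran over 126 splits of the females (smallest p 0.0159) and 462 of the males (0.00433). Correlations used log2 CPM and 100000 resamples. Levels per kilobase used GENCODE exons (GRCm38), and promoter windows came from RefSeq GRCm38.p6. The scripts were tested on simulated data.

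The members and all gene lists were chosen with earlier results of these data known. Genes given in full were those of the 3 smallest p in each comparison, the 2 highest per kilobase in each class, and the 2 most and 2 least variable. Col21a1 and the haemoglobin symbols Hbb-bs and Hbb-bt were not analysed here. Of the blood markers, Hba-a1, Hba-a2, Hbb-b1 and Hbb-b2 were at 0 in every library.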

Additional observations from a re-analysis of the deposited data

Results flagged for a closer look

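Of 128 combinations of a collagen gene, a collagen sum or a marker sum with a group of 4 to 6 mice that were examined for a single mouse far from the others, 20 passed Dixon's 95% limit, where chance gives about 6.4. The combinations overlap, since sums contain genes that were also examined singly, and members and lists were chosen with earlier results of these data known. The count was not tested against 6.4. For each of the 20, the value given is the gap to the nearest mouse as a share of the range of log2 CPM in the group.

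CD female E265 was low in 5 of them: Col4a1 at 10.9 CPM (0.886), Col7a1 at 0.0794 (0.893), Col18a1 at 0.715 (0.835), Col8a2 at 0.715 (0.723) and the sum of the 4 vascular basement membrane collagens at 20.6 CPM (0.815). CD female E249 was high for Col11a1 at 29.6 CPM (0.839), for the leptomeningeal markers at 387 CPM (0.774) and for the striatal markers at 1050 CPM (0.899), and low for Col26a1 at 0.737 CPM (0.875). KD female E227 was low for the striatal markers at 271 CPM (0.908) and high for Col5a1 at 24.6 CPM (0.867).

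KD male E59 was high for Col8a1 at 22.2 CPM (0.882), for the choroid plexus markers at 3917 CPM (0.773) and for the striatal markers at 3322 CPM (0.855). KD male E64 was high for Col1a2 at 36.9 CPM (0.644) and low for Col11a1 at 2.95 CPM (0.628).

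The others were single. Col12a1 was high in KD female E68 at 31.5 CPM (0.96), Col14a1 low in KD female E207 at 1.84 CPM (0.899), and Col10a1 low in CD male E66 at 0.161 CPM (0.839) and in KD male E53 at 0.250 CPM (0.636). What sets these mice apart was not tested.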

How the results depend on the processing

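No paired analysis was possible because mouse numbers are not shared between groups. Of the 44 collagen genes, 0 were called in each comparison as reported. In females 1 was called with DESeq2 (1.62% of all genes were), 2 in series 1 alone (5.42%) and 8 without E249 and E227 (12.2%), and 0 to 3 when single mice were left out (3 without E249, 2 without E227, where 6.66% and 5.68% of all genes were called). In both sexes it was 1 and 2 with 1 and 2 RUVg factors (1.44% and 1.9% of all genes), 3 with the likelihood ratio test (2.36%), 3 with DESeq2 (2.24%), 5 in series 1 alone (5.55%), 7 without E249 and E227 (7.83%), and 0 to 6 without single mice (6 without E249, 4 without E227, 1 without E53 or E256, where 5.04%, 4.19%, 0.387% and 0.456% were called). For the interaction it was 2 without E249 and E227 (3.56%), and between the sexes 2 with the likelihood ratio test (1.83%), 2 with DESeq2 (1.35%), 1 without E59 and E64 (1.07%), 3 without E249 and E227 (3.24%) and 0 to 5 without single mice (5 without E227, 1 without E59, E62 or E228, where 5.1%, 1.32%, 0.561% and 0.507% were called). In males and in series 2 alone the count was 0 throughout. Leaving out E249 and E227, or E59 and E64, was chosen after seeing the data.

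Median log2 fold changes that moved by more than the spread were those of type IV in series 1 alone (0.60 in males, 0.55 in both sexes), type VI in females without E249 and E227 (0.73), the fibril-associated genes for the interaction in series 1 alone (-0.38), the neuronal genes in females with the striatal score (-0.089) and the neuronal genes for the interaction (-0.68 without E227 to 0.11 over single mice left out). The other 1632 medians moved less. Of 537 values of named genes under other settings, 42 passed the threshold and 0 changed sign. The causes were not tested. Depth limits the members near 1 CPM, whose values rest on few counts.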
